A study of Homo sapiens with 6 samples.

Results

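The HOX genes are the homeobox genes of the HOXA, HOXB, HOXC and HOXD clusters. They were taken as every symbol in the deposited count tables that consists of HOXA, HOXB, HOXC or HOXD followed by digits, which gave 39 of the 23228 genes, with 11 in HOXA, 10 in HOXB, 9 in HOXC and 9 in HOXD. RNA was sequenced from RL95-2, an established human endometrial carcinoma line and the only line in these data, in 3 control and 3 ADP-CM libraries. Before the treatment the cells grew in RPMI with FBS. Control cells were kept without serum in equal parts of RPMI and DMEM, and ADP-CM cells without serum in equal parts of RPMI and adipocyte-conditioned medium (ADP-CM), for 24 h. The conditioned medium came from mature adipocytes that had been isolated from human visceral fat and kept in DMEM. Sources used here do not tell whether the 3 libraries of a group came from separate cultures, so p-values measure the spread between these libraries, which may be technical.

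HOX proteins are transcription factors that bind DNA through a homeodomain and give cells their position along the body axis. In each cluster the genes lie in the order in which they are used along that axis, and genes at the same place in different clusters form a paralog group, numbered low at the anterior, 3′ end and high at the posterior, 5′ end. In the female reproductive tract HOXA9, HOXA10, HOXA11 and HOXA13 mark successive segments from oviduct to vagina, and HOXA10 and HOXA11 remain active in adult endometrium.

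Reads counted on genes numbered 16262614 to 18363033 per library, and the ADP-CM libraries were the deeper ones. Reads on no gene made up 10.2 to 10.3% of counted reads in control and 11.5 to 11.6% in ADP-CM, and the part of this in the HOX results was not tested. Levels are given as CPM after TMM normalization, which scales the reads on a gene to the depth of its library, and between genes as CPM per kb of exon. A gene was said to rise or fall only where edgeR's quasi-likelihood test gave an adjusted p under 0.01 over all 12663 genes tested, a limit taken from the study, which also asked for a fold change over 1.5. Of the 39 HOX genes, 26 passed the filter on low counts and were tested. The other 13 were too low for a test, and nothing is said of their change.

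RL95-2 cells expressed genes of all 4 clusters in control. At least 1 CPM was reached by 24 of the 39 HOX genes, with 8 of 11 in HOXA, 7 of 10 in HOXB, 3 of 9 in HOXC and 6 of 9 in HOXD. The same 24 genes reached 1 CPM in ADP-CM. Most of the reads lay on a few genes, since HOXC13, HOXB7, HOXD13, HOXD8 and HOXA11 held 61.9% ± 0.932 (SD, n = 3) of all HOX reads in control. The highest gene per kb was HOXA11 in HOXA, HOXB7 in HOXB, HOXC13 in HOXC and HOXD13 in HOXD.

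**Figure D1:**
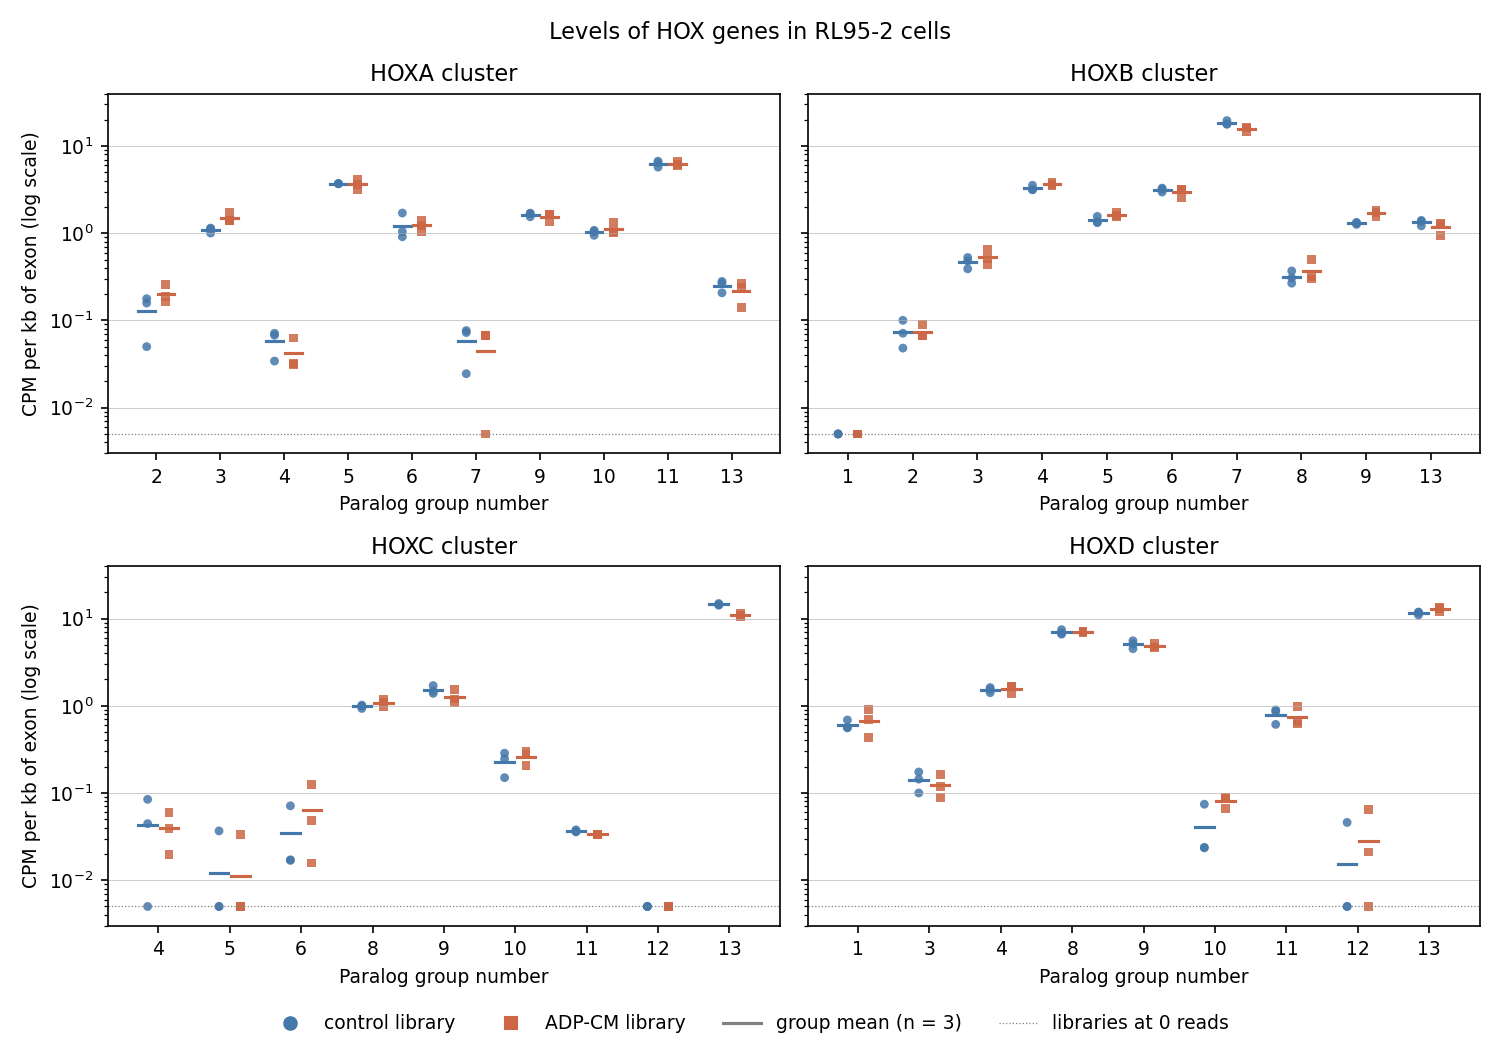
Level of 38 of the 39 HOX genes in CPM per kb of exon (log axis) by paralog group number, with 1 panel per cluster, circles for the 3 control libraries, squares for the 3 ADP-CM libraries and bars for the group means. HOXB7, HOXC13 and HOXD13 stand above 10 CPM per kb in every library, and genes on the dotted line had 0 reads in that library.

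The order of the levels was set by length-scaled control values. HOXB7 led with 18.4 ± 0.984 CPM per kb (SD, n = 3). Its GENCODE span is chr17:46684594-46710934 on the minus strand (GRCh37, the build of the deposited counts). This span also takes in HOXB8 and HOXB9, which share none of its exon bases. HOXC13, at chr12:54332615-54340328 on the plus strand, followed with 14.5 ± 0.325 CPM per kb. HOXD13, at chr2:176957449-176960672 on the plus strand, came next with 11.5 ± 0.481 CPM per kb. The libraries of these genes did not overlap with those of the next gene in the order. Among 12493 tested genes with a known exon length, HOXB7 stood above 77.0%, HOXC13 above 71.4% and HOXD13 above 65.0%. The median of those genes was 6.68 CPM per kb, and HOXB7, HOXC13 and HOXD13 lay above it in every control library. It fell within the control libraries of HOXD8 and HOXA11. Without length scaling HOXC13 came before HOXB7, while the same 5 genes led under every length used.

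HOXD8 (6.96 ± 0.441 CPM per kb) and HOXA11 (6.28 ± 0.501 CPM per kb) overlapped between libraries and could not be ordered. HOXD9 (5.07 ± 0.528) and HOXA5 (3.71 ± 0.0137 CPM per kb) came next, each apart from its neighbours. The place of HOXA5 depended on the length used. HOXB6 came before it under the other lengths, and both HOXB6 and HOXB4 did so without length scaling. HOXB4 (3.29 ± 0.223) and HOXB6 (3.15 ± 0.166 CPM per kb) overlapped with each other. From HOXA9 (1.64 ± 0.0836 CPM per kb) down to HOXC8 (0.981 ± 0.0442 CPM per kb) each gene overlapped with the next, so neighbours could not be ordered, while HOXA9 lay above HOXA3, HOXA10 and HOXC8 in every control library. HOXD4, HOXC9, HOXB5, HOXB13, HOXB9, HOXA6, HOXA3 and HOXA10 lay in this stretch.

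In the HOXA cluster, levels did not follow position. HOXA11, which is needed for the uterus and for kidney and forelimb, stood at 6.28 ± 0.501 CPM per kb, and its neighbour HOXA10, needed for implantation, at 1.02 ± 0.0686 CPM per kb. HOXA9, the gene of the oviduct segment, stood at 1.64 ± 0.0836 CPM per kb, and HOXA13, the gene of the vaginal segment, at 0.252 ± 0.0388 CPM per kb. The 4 genes of the reproductive tract thus differed widely in level, with HOXA11 the highest and HOXA13 the lowest in every control library. In the GENCODE annotation 15.9% of the HOXA9 and 9.93% of the HOXA10 exon bases lie in another gene on the same strand. The reads were counted on RefSeq genes, whose overlaps may differ. HOXA10-AS covers a further 13.9% and 16.4% on the other strand, so reads of HOXA9 and HOXA10 could be left out. Towards the anterior end, HOXA5, which acts in lung development, reached 3.71 ± 0.0137 CPM per kb. HOXA3, needed for thymus and parathyroid, reached 1.09 ± 0.0764 CPM per kb. HOXA6 was at 1.22 ± 0.425 CPM per kb with a wide spread. A further 3 genes of the cluster had few reads. HOXA2, which patterns the second pharyngeal arch, had 6, 7 and 2 reads in control and 8, 11 and 7 in ADP-CM, while HOXA4 and HOXA7 had 3 reads or fewer in every library. HOXA-AS3, on the other strand, covers 39.3% of the HOXA6 and 62.5% of the HOXA7 exon bases.

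In the HOXB cluster, HOXB7 stood apart from every other gene. Its neighbours HOXB6 and HOXB8 stood at 3.15 ± 0.166 and 0.315 ± 0.0514 CPM per kb, and HOXB8 had 12, 15 and 11 reads in control and 13, 22 and 14 in ADP-CM. HOXB4, known for its effect on blood stem cells, reached 3.29 ± 0.223 CPM per kb, HOXB5 1.41 ± 0.129, and HOXB3, the paralog of HOXA3, 0.467 ± 0.0696 CPM per kb. At the posterior end HOXB9 was at 1.3 ± 0.0357 and HOXB13, a gene of the prostate and hindgut, at 1.33 ± 0.0986 CPM per kb. HOXB2 had 4, 2 and 3 reads in control and 4, 3 and 3 in ADP-CM. HOXB1, a hindbrain gene, had 0 reads in all 6 libraries, which allows at most 0.163 to 0.185 CPM per library where a count of 0 is taken to allow up to 3 reads. Such limits cover counting error only.

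The HOXC cluster held 1 high gene. HOXC13, the gene of hair and nail keratin formation, stood at 14.5 ± 0.325 CPM per kb, while HOXC12 beside it had 0 reads in all 6 libraries and HOXC11 had 2 reads in each. HOXC9 and HOXC8, genes of the thoracic skeleton, reached 1.52 ± 0.163 and 0.981 ± 0.0442 CPM per kb. HOXC10 had 11, 6 and 10 reads in control and 12, 9 and 13 in ADP-CM. At the anterior end HOXC4 had 2, 0 and 4 reads in control and 3, 2 and 1 in ADP-CM. HOXC6 had 4, 1 and 1 reads in control and 3, 8 and 1 in ADP-CM, and HOXC5 had 1 read at most. HOXC13 thus held most of the reads of its cluster in every library. In the GENCODE annotation HOXC4 and HOXC6 share exon bases with each other, and HOXC6 also with HOXC9. Of the HOXC5 exon bases 67.3% lie in genes on its strand that bear no HOX name. Reads on shared bases could be left out where the RefSeq genes used for counting overlap as well.

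In the HOXD cluster, levels went up and down from gene to gene at the posterior end. HOXD13, which forms the digits and the genital tubercle, stood at 11.5 ± 0.481 CPM per kb, and the next gene, HOXD12, had 0, 2 and 0 reads in control and 3, 0 and 1 in ADP-CM. HOXD11, which acts with HOXA11 in the forelimb, was at 0.788 ± 0.154 CPM per kb, and HOXD10 had 3, 1 and 1 reads in control and 4, 3 and 4 in ADP-CM. HOXD10 and HOXD11 share 18.2% and 21.4% of their exon bases on the same strand, so their reads could be left out. HOXD9 and HOXD8 stood at 5.07 ± 0.528 and 6.96 ± 0.441 CPM per kb. HOXD4, a hindbrain gene, was at 1.52 ± 0.104 and HOXD1 at 0.603 ± 0.0721 CPM per kb. HOXD3 had 6, 9 and 11 reads in control and 6, 8 and 11 in ADP-CM. Some of these genes face an antisense partner, which covers 60.1% of the exon bases of HOXD1 and 24.4% of those of HOXD8. The strand setting of the counting is not given in the sources used here, so reads of such pairs may have been mixed or left out.

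The promoters of HOXD13 and HOXD12 are shown because these adjacent genes differed between a high level and almost no reads. The 250 bases before each start come from RefSeq (GRCh38.p14), and CpG dinucleotides are in capitals. The HOXD13 window (chr2:176092471-176092720, plus strand) holds 21 CpG and the HOXD12 window (chr2:176099545-176099794, plus strand) holds 16.
HOXD13: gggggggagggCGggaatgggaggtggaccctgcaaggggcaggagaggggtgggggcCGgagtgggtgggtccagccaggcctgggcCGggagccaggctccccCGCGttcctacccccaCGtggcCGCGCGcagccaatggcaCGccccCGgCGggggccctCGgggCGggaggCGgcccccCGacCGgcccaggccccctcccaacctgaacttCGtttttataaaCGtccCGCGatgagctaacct
HOXD12: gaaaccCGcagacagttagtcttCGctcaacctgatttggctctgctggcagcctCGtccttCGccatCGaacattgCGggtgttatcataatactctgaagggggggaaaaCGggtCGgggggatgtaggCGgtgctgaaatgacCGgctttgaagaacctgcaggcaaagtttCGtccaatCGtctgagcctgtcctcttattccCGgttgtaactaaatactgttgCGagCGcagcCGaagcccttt
Both windows were denser in CpG than the median promoter in the table, which held 11 CpG over 35116 windows of the same length. A RefSeq window was at hand for 20 of the 39 HOX genes, and their median was 21 CpG. The 11 of them with at least 1 CPM in control had a median of 23 CpG (range 4 to 40), and the 9 below 1 CPM a median of 16 (range 7 to 28), so the ranges overlapped. Among the 9, HOXC4 and HOXC5 have the same window (14 CpG), which is counted for each of them here and in the motif counts. The TATA motif TATAAA, searched on both strands, was in 4 of the 11 windows of expressed genes and in 0 of the 9 others, against 10.7% of all windows. These matches are descriptions, and no methylation or binding was measured in these libraries.

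Few HOX genes changed with ADP-CM, and none of the 26 tested by more than 1.5-fold. HOXA3 rose, while HOXC13 and HOXB7 fell, so that 1 of 26 tested HOX genes (3.85%) rose against 13.5% of all tested genes and 2 (7.69%) fell against 13%. In both directions together 11.5% of the HOX genes passed adjusted p 0.01, against 26.5% of all tested genes. With the fold limit of 1.5 added, 0 of 26 passed, against 2.27% of all. At an unadjusted p under 0.05 the edgeR test gave 6 HOX genes (23.1%) against 45% of all genes, and DESeq2 gave 0 HOX genes past both limits as well. The median log2 fold change of the HOX genes was 0.03, against -0.0023 over all tested genes, and the median size of the change was 0.17 against 0.11. Standard errors of the HOX genes ran from 0.057 for HOXC13 to 0.39 for HOXC10, so at the depth of the low members a change of the size of the largest one here was not detectable.

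**Figure D2:**
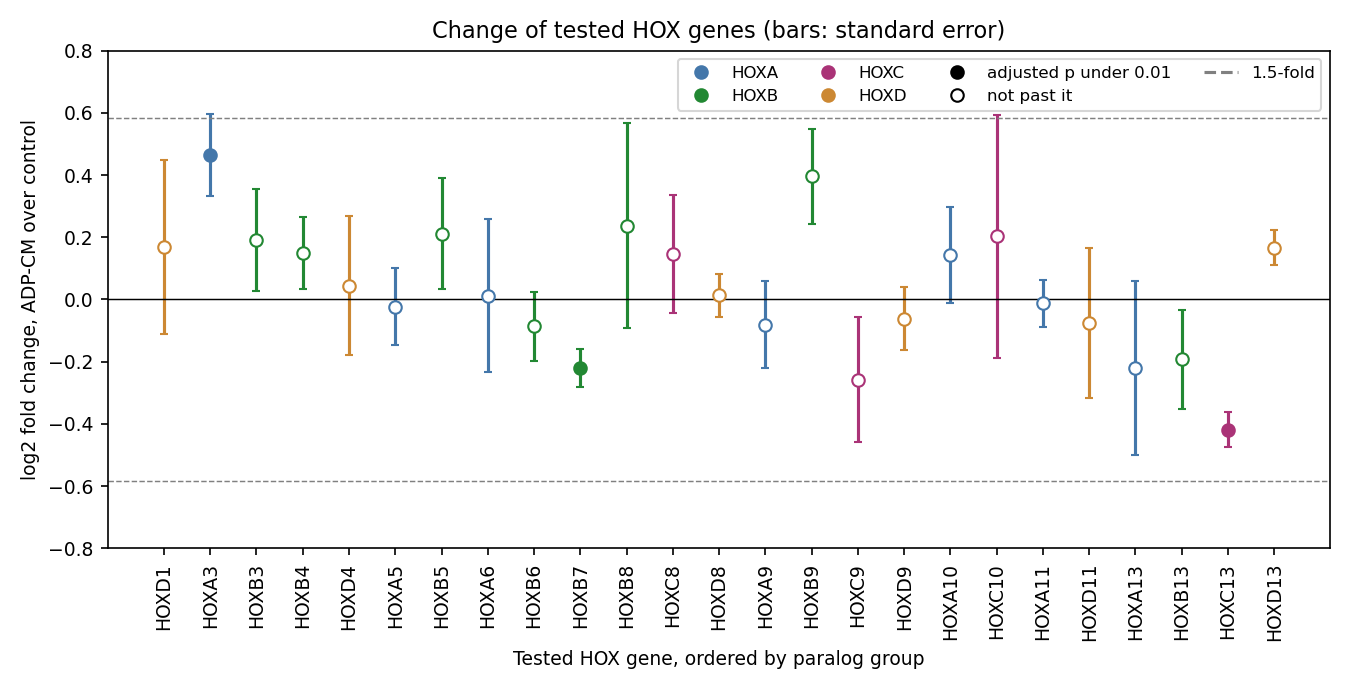
The log2 fold change of ADP-CM over control for 25 of the 26 tested HOX genes, ordered by paralog group and coloured by cluster, with bars for the standard error and filled circles for adjusted p under 0.01. HOXA3 lies at 0.47, HOXB7 at -0.22 and HOXC13 at -0.42, and all 25 points lie inside the dashed lines at 1.5-fold.

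HOXC13 had the clearest change. It was 33.5, 34.0 and 35 CPM in control and 27.0, 25.2 and 24.5 CPM in ADP-CM, and every ADP-CM library lay below every control library. Its mean fell from 34.2 ± 0.767 to 25.6 ± 1.28 CPM (SD, n = 3), a log2 fold change of -0.42 (SE 0.057, edgeR adjusted p = 1.02e-08). An antisense gene, HOXC13-AS, covers 7.30% of its exon bases. HOXC13 passed adjusted p 0.01 under every alternative run and without each library in turn, with an adjusted p of 2.10e-06 at most.

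HOXB7, a gene often raised in carcinomas, was 29.7, 27.0 and 27.3 CPM in control and 25.1, 22.5 and 24.4 CPM in ADP-CM. The groups did not overlap, and the mean went from 28.0 ± 1.5 to 24.0 ± 1.35 CPM, a log2 fold change of -0.22 (SE 0.061, edgeR adjusted p = 0.00297). No other gene shares its exon bases. Without control replicate 1 the value was -0.18 (adjusted p = 0.0383), without ADP-CM replicate 2 it was -0.18 (adjusted p = 0.0299), and with DESeq2 -0.22 (adjusted p = 0.0336), so the call was lost in each.

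HOXA3, at chr7:27145803-27192202 on the minus strand, was 4.93, 4.86 and 4.33 CPM in control and 6.08, 6.0 and 7.39 CPM in ADP-CM. ADP-CM replicate 3 was the highest, and the groups did not overlap. The mean rose from 4.70 ± 0.329 to 6.49 ± 0.784 CPM, a log2 fold change of 0.47 (SE 0.13, edgeR adjusted p = 0.00353). Without ADP-CM replicate 3 the log2 fold change was 0.36 (adjusted p = 0.0450), without control replicate 3 it was 0.41 (adjusted p = 0.0286), and with DESeq2 0.47 (adjusted p = 0.0347), so the call was lost in each. In the annotation 9.29% of its exon bases lie in another gene on the same strand and 17.3% in HOXA-AS2 or HOXA-AS3 on the other strand. HOXA3 has several starts, and the window before that of its canonical transcript (chr7:27152584-27152833, minus strand, GRCh38.p14) is shown, with CpG in capitals, as the promoter of the HOX gene that rose.
HOXA3: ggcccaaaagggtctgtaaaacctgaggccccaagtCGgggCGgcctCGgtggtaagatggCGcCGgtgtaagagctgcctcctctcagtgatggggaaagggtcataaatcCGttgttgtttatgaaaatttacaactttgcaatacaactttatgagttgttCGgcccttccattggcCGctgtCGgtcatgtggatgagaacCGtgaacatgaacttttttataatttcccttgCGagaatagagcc
It holds 11 CpG, 3 matches to TTTATG, a form of the caudal-type motif, and 1 match to TATAAA, each searched on both strands. TTTATG was in 9.64% of all windows. The windows before the other HOXA3 starts held 0 matches to either motif and 0 to 26 CpG. Counts per gene do not tell which start these cells used.

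**Figure D3:**
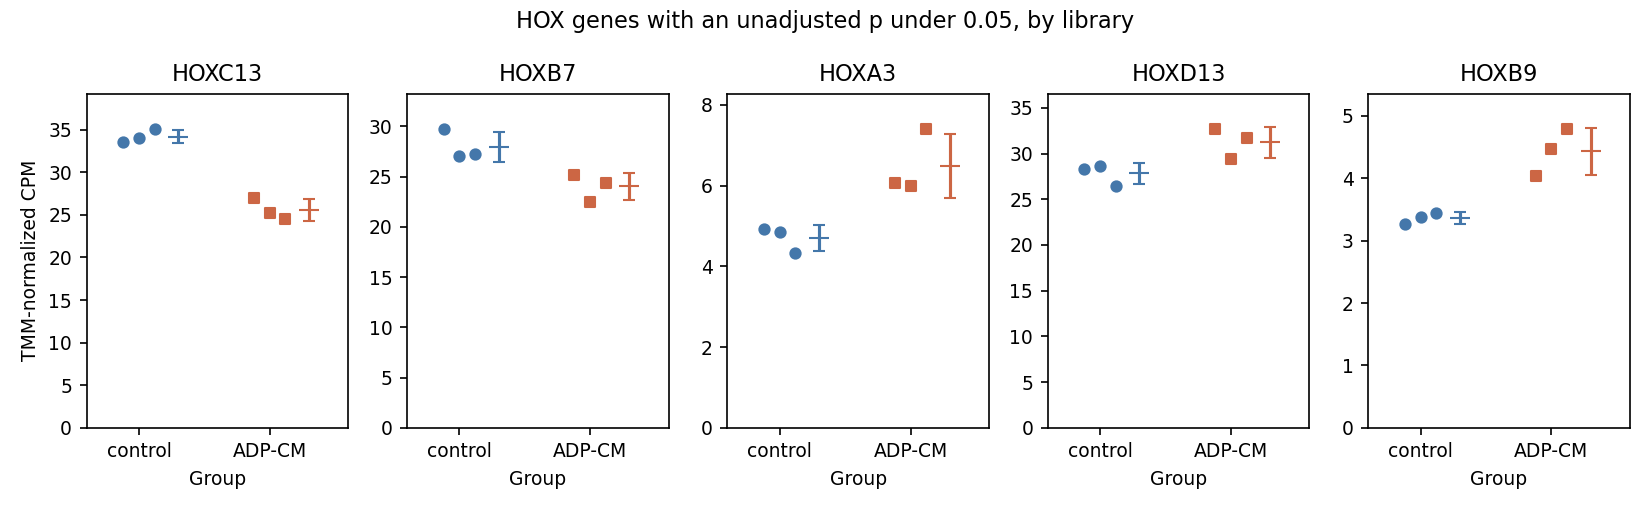
TMM-normalized CPM in each library for 5 of the 6 HOX genes with an unadjusted p under 0.05, with circles for control, squares for ADP-CM and bars for the mean and SD of 3 libraries, on axes that start at 0. In all 5 genes the groups do not overlap, and HOXC13, HOXB7 and HOXA3 alone passed adjusted p 0.01.

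HOXD13 and HOXB9 did not pass. HOXD13 was 28.3, 28.7 and 26.5 CPM in control and 32.6, 29.4 and 31.6 CPM in ADP-CM (log2 fold change 0.17, SE 0.057, edgeR adjusted p = 0.0171). HOXB9, which acts in the thoracic skeleton and mammary gland, was 3.27, 3.38 and 3.45 CPM in control and 4.03, 4.47 and 4.78 CPM in ADP-CM (log2 fold change 0.40, SE 0.15, edgeR adjusted p = 0.0363). In both genes all ADP-CM libraries lay above all control libraries. Without ADP-CM replicate 2, HOXD13 passed with a log2 fold change of 0.21 (adjusted p = 0.00568). The libraries did not overlap in 7 of 26 tested HOX genes (26.9%), against 45.5% of all tested genes, and HOXB4 was among them.

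HOXA11 was 17.9, 15.3 and 17.1 CPM in control and 17.7, 15.8 and 16.4 CPM in ADP-CM, with overlapping groups and a log2 fold change of -0.01 (SE 0.075). HOXA10 was 4.01, 3.85 and 3.51 CPM in control and 4.92, 3.87 and 3.75 CPM in ADP-CM, and its log2 fold change was 0.14 (SE 0.15). The groups overlapped in both genes of the uterine segment. HOXA9 was 4.68, 5.15 and 5.09 CPM in control and 4.97, 4.14 and 5.0 CPM in ADP-CM. HOXA13 was 1.36, 1.42 and 1.05 CPM in control and 0.718, 1.20 and 1.36 CPM in ADP-CM, with its lowest value in ADP-CM replicate 1. None of the 4 reproductive tract genes of the HOXA cluster passed adjusted p 0.01. HOXA5 was 6.35, 6.40 and 6.37 CPM in control and 6.19, 5.45 and 7.18 CPM in ADP-CM, and HOXA6 was 1.17, 2.19 and 1.34 CPM in control and 1.82, 1.58 and 1.36 CPM in ADP-CM. Control replicate 2 was the highest library for HOXA6, and the groups of both genes overlapped.

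In the HOXB cluster, HOXB4 was 6.35, 7.11 and 6.32 CPM in control and 7.13, 7.63 and 7.18 CPM in ADP-CM (log2 fold change 0.15, SE 0.12). HOXB6 was 8.57, 8.29 and 7.72 CPM in control and 8.17, 6.60 and 8.37 CPM in ADP-CM. HOXB3 was 3.57, 2.90 and 3.92 CPM in control and 4.81, 3.27 and 3.81 CPM in ADP-CM. HOXB4 was higher in all 3 ADP-CM libraries and did not pass the test, while HOXB6 and HOXB3 overlapped. HOXB5 was 2.53, 2.90 and 2.46 CPM in control and 2.87, 3.00 and 3.26 CPM in ADP-CM. HOXB13 was 3.70, 4.26 and 4.15 CPM in control and 3.98, 2.84 and 3.81 CPM in ADP-CM. Both overlapped between groups, and HOXB13 had its lowest value in ADP-CM replicate 2.

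In the HOXC cluster, HOXC9 was 2.84, 2.31 and 2.46 CPM in control and 1.99, 2.56 and 1.79 CPM in ADP-CM (log2 fold change -0.26, SE 0.20). HOXC8 was 2.40, 2.25 and 2.46 CPM in control and 2.87, 2.62 and 2.39 CPM in ADP-CM (log2 fold change 0.15, SE 0.19). Neither passed, and the groups of both overlapped.

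In the HOXD cluster, HOXD8 was 19.6, 17.9 and 17.4 CPM in control and 18.1, 18.6 and 18.7 CPM in ADP-CM (log2 fold change 0.01, SE 0.070). HOXD9 was 8.44, 9.59 and 10.4 CPM in control and 8.67, 8.83 and 9.79 CPM in ADP-CM (log2 fold change -0.06, SE 0.10). These abundant genes overlapped between groups and had small standard errors. HOXD4 was 1.6, 1.84 and 1.75 CPM in control and 1.55, 1.91 and 1.90 CPM in ADP-CM. HOXD11 was 1.29, 1.90 and 1.81 CPM in control and 1.38, 1.31 and 2.07 CPM in ADP-CM. HOXD1 was 1.29, 1.07 and 1.05 CPM in control and 1.33, 1.69 and 0.816 CPM in ADP-CM. The groups of all 3 overlapped, and HOXD1 had both its lowest and its highest library in ADP-CM.

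By paralog group, the signs of the estimates are given as counts, most of them from genes that did not pass the test. In groups 1 to 3, 4 of 8 members were tested, and all 4 were higher in ADP-CM, with 1, HOXA3, past adjusted p 0.01. In groups 4 to 8, 10 of 15 were tested, 7 were higher and 3 lower, with a median log2 fold change of 0.03 and 1 lowered. In groups 9 to 13, 12 of 16 were tested, 4 were higher and 8 lower, with a median of -0.07 and 1 lowered. Over all tested genes 49.4% were higher and the median was -0.0023. Within group 13 the tested genes went both ways, with HOXC13 at -0.42, HOXA13 at -0.22, HOXB13 at -0.19 and HOXD13 at 0.17 on the log2 scale, and HOXC13 alone passed. The sign of each tested HOX gene was the same under every other scaling and filter run.

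The summed level of the HOX genes overlapped between groups, at 201.9 ± 2.81 CPM in control and 197.2 ± 6.93 CPM in ADP-CM (SD, n = 3). Within it, HOXC held 19.5, 19.5 and 20.5% of HOX reads in control and 16.3, 16.7 and 14.8% in ADP-CM. HOXD held 29.8, 30.7 and 29.9% in control and 31.8, 32.9 and 32.9% in ADP-CM. HOXA held 22.1, 21.6 and 21.5% in control and 23.7, 23.1 and 24.0% in ADP-CM. The groups did not overlap in these 3 clusters, and a two-sided exact permutation test gave p = 0.1 for each, the smallest p that 3 against 3 libraries allow. HOXB overlapped, with 28.3% ± 0.265 in control and 27.9% ± 0.538 in ADP-CM (exact p = 0.5). Paralog groups 1 to 3 held 7.04% ± 0.273 of HOX reads in control and 9.0% ± 0.0233 in ADP-CM (exact p = 0.1), with no overlap. HOXA3 held 80, 82 and 74 of the 244, 231 and 238 reads of these groups in control. In ADP-CM it held 110, 110 and 136 of 329, 312 and 332. Groups 4 to 8 held 38.1% ± 0.839 in control and 37.7% ± 0.547 in ADP-CM (exact p = 0.4). Groups 9 to 13 held 54.8% ± 1.01 in control and 53.3% ± 0.562 in ADP-CM (exact p = 0.2), and both sets overlapped. The shares add up to a fixed total, so a fall of one cluster raises the others. HOXC13 held 544, 574 and 599 of 648, 661 and 700 HOXC reads in control. In ADP-CM it held 489, 463 and 451 of 597, 579 and 546, so the fall of the HOXC share mostly restates that of HOXC13. HOXD13 held 459, 484 and 453 of 991, 1042 and 1019 HOXD reads in control. In ADP-CM it held 591, 539 and 582 of 1165, 1143 and 1210, so single genes weigh on these shares. Adjusted over the 7 shares tested by the Benjamini-Hochberg method, the exact p of 0.1 became 0.175.

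For each read on HOXD13 there were 1.19, 1.19 and 1.32 reads on HOXC13 in control, and 0.827, 0.859 and 0.775 in ADP-CM. The most abundant posterior gene by reads was HOXC13 in every control library and HOXD13 in every ADP-CM library. This pair was chosen after its values were seen and is given with no test.

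**Figure D4:**
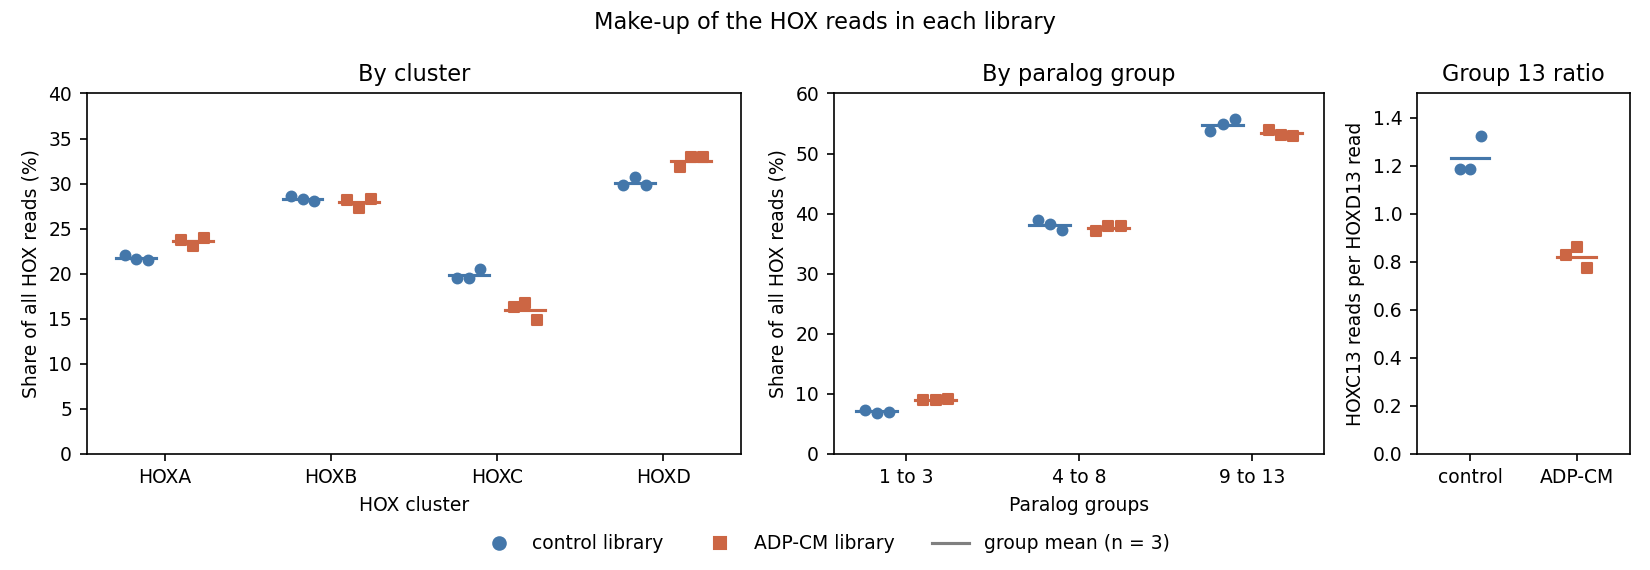
Share of all HOX reads by cluster and by paralog group (%), and reads on HOXC13 per read on HOXD13, in each library, with circles for control, squares for ADP-CM and bars for the means of 3 libraries. The HOXC share lies at 19.5 to 20.5% in control and at 14.8 to 16.7% in ADP-CM, and the HOXC13 to HOXD13 ratio is above 1 in every control library and below 1 in every ADP-CM library.

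The clusters also hold microRNA genes, miR-10 and miR-196, which are known to target HOX transcripts through pairing of the seed (bases 2 to 8) with the 3′UTR. Poly(A) libraries do not measure mature microRNAs, so their sequences (RefSeq) and sites are shown only to place the HOX transcripts that carry a match. The seed is in capitals.
miR-10a-5p: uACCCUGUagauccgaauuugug
miR-196a-5p: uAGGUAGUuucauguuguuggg
miR-196b-5p: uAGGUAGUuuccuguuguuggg
The seed of miR-196a and miR-196b is the same. The miR-10 site ACAGGGT was in the canonical 3′UTR (GENCODE release 44 on GRCh37) of 3 of 39 HOX genes (7.69%), HOXA3 and HOXB3 among them, against 15% of 11801 tested genes with a 3′UTR. The miR-196 site ACTACCT was in 8 of 39 (20.5%), HOXA5, HOXA7, HOXA9, HOXB1, HOXB6, HOXB7, HOXB13 and HOXC8, against 7.92%. These HOX shares count untested genes too, while the shares set beside them count tested genes only. Among the 26 tested HOX genes, 3 had the miR-10 site and 6 the miR-196 site. The sites of the HOX genes that passed the test are given with the site in capitals.
HOXA3, miR-10: actctttgatcagaaACAGGGTa
HOXB7, miR-196: caacactgaaaaaatACTACCTa
The 6 tested HOX genes with a miR-196 site had a median log2 fold change of -0.08, and all tested genes with the site a median of 0.0042. HOXC13 held neither site. Reads on the microRNA genes themselves were 0 in all libraries for MIR10A, MIR196A1 and MIR196A2, and 0 to 3 for MIR196B.

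HOX proteins bind DNA together with TALE homeodomain proteins of the PBX, MEIS and PREP families. The lists of partners and regulators are read against the 13.5% of all tested genes that rose and the 13% that fell. Of 11 TALE genes 9 were tested, 1 rose and 2 fell, with a median log2 fold change of -0.10, and DESeq2 called 1 at the same limit. PBX2, a PBX partner of HOX proteins, rose from 56.0 ± 0.276 to 65.4 ± 0.954 CPM (log2 fold change 0.23, edgeR adjusted p = 5.90e-06). PKNOX1, which encodes PREP1, fell from 29.7 ± 1.76 to 25.8 ± 1.79 CPM (log2 fold change -0.21, adjusted p = 0.00491). TGIF1, a TALE repressor, fell by 0.10 on the log2 scale (adjusted p = 0.00483), and MEIS1 had a value of -0.12 (adjusted p = 0.0443).

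Of 24 non-coding RNAs of the HOX clusters, 15 were in the table, 4 were tested and 0 passed adjusted p 0.01 by edgeR, with 2 at an unadjusted p under 0.05 and 0 by DESeq2. HOXA11-AS had 18, 25 and 30 reads in control and 43, 37 and 40 in ADP-CM (log2 fold change 0.59, SE 0.23, adjusted p = 0.0342). It lies opposite HOXA11 and covers 27.2% of the exon bases of that gene, whose own log2 fold change was -0.01. HOXD-AS2, opposite HOXD8, had 37, 32 and 47 reads in control and 25, 31 and 33 in ADP-CM (log2 fold change -0.51, adjusted p = 0.0600). HOXD-AS1 had a log2 fold change of 0.18 and HOTAIRM1, in the HOXA cluster, of 0.22. HOTAIR, the non-coding RNA of the HOXC cluster, had 2 to 8 reads per library and was too low for a test.

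The genes that flank the HOX clusters are given beside the members inside. Of 16, 11 were tested, 1 rose and 2 fell, with a median log2 fold change of -0.05, and DESeq2 called 2. CBX5, a heterochromatin protein gene on the HOXC side, fell by 0.22 on the log2 scale (adjusted p = 3.74e-12) and KIAA1715, on the HOXD side, by 0.19 (adjusted p = 7.29e-04). ATP5G3 rose by 0.09 (adjusted p = 0.00212), and CALCOCO1, beside HOXC13, had a value of -0.23 (adjusted p = 0.0125). EVX1 and EVX2, the homeobox genes at the posterior ends of HOXA and HOXD, had 0 reads in all libraries, next to the high HOXD13 in the case of EVX2.

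HOX clusters are kept silent by Polycomb and active by MLL and Trithorax proteins. All 32 Polycomb genes written were tested, and 5 rose and 5 fell, with a median log2 fold change of 0.02, while DESeq2 called 5 in all. EZH1, a histone H3K27 methyltransferase, rose from 27.3 ± 1.49 to 33.7 ± 1.66 CPM (log2 fold change 0.31, adjusted p = 1.34e-05), and JARID2, which recruits the complex, by 0.20 (adjusted p = 2.10e-04). The subunit genes RBBP7 and RYBP fell, RBBP7 by 0.10 and RYBP by 0.14 on the log2 scale (adjusted p = 1.31e-04 and 4.28e-04). Of 23 MLL and Trithorax genes 9 rose and 2 fell, with a median of 0.06, while DESeq2 called 7 in all. MLL2, a histone H3K4 methyltransferase, rose from 99.1 ± 0.478 to 120.4 ± 3.35 CPM (log2 fold change 0.28, adjusted p = 8.50e-11). NCOA6 and ASH1L rose by 0.23 and 0.18, while ASH2L, a core subunit, fell by 0.22 on the log2 scale (adjusted p = 3.40e-07).

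Retinoic acid, GDF11 and CDX factors switch HOX genes on along the axis. Of 19 inducers and axial regulators 12 were tested, 3 rose and 1 fell, with a median log2 fold change of 0.03, and DESeq2 called 4. ALDH1A3, which makes retinoic acid, was 139, 145 and 141 CPM in control and 205, 211 and 204 CPM in ADP-CM (log2 fold change 0.55, SE 0.028, adjusted p = 9.25e-26). CYP26B1, which degrades it, was 18.3, 20.5 and 20.6 CPM in control and 27.1, 28.0 and 31.7 CPM in ADP-CM (log2 fold change 0.55, SE 0.065, adjusted p = 2.68e-10). GDF11, a ligand that acts on posterior HOX genes, was 13.7, 15.1 and 14.3 CPM in control and 21.6, 21.2 and 21.5 CPM in ADP-CM (log2 fold change 0.57, SE 0.071, adjusted p = 8.33e-10). Each of these was higher in all 3 ADP-CM libraries, and each change was larger than that of any HOX gene. GMNN, which encodes geminin, fell by 0.17 on the log2 scale (adjusted p = 2.49e-05). CDX1, CDX2 and CDX4 had 0 reads in all libraries.

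Of 18 regulators of Mullerian duct and uterine identity 11 were tested, 4 rose and 1 fell, with a median log2 fold change of 0.05, while DESeq2 called 3 in all. PAX8, the Mullerian lineage factor, rose from 150.1 ± 6.12 to 182 ± 7.41 CPM (log2 fold change 0.28, adjusted p = 1.53e-11), and MSX1 by 0.27 (adjusted p = 3.66e-04). EMX2, which HOXA10 is known to repress in endometrium, was 2.84, 2.78 and 2.28 CPM in control and 4.25, 3.60 and 4.13 CPM in ADP-CM (log2 fold change 0.60, adjusted p = 0.00328), the only gene of this list past 1.5-fold. GATA2, a progesterone response factor, fell from 49.2 ± 0.949 to 36.4 ± 0.909 CPM (log2 fold change -0.43, adjusted p = 2.50e-11). HAND2 and SOX17 had 0 reads in all libraries.

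**Figure D5:**
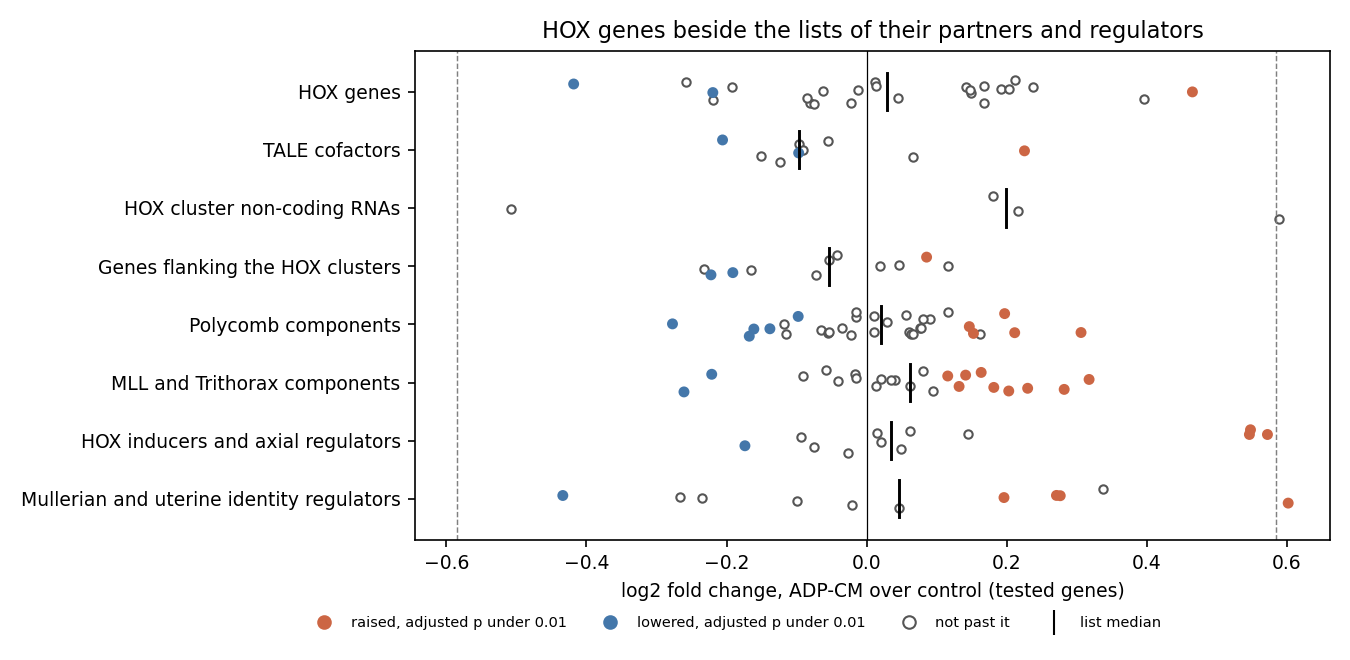
The log2 fold change of ADP-CM over control for 25 of the 26 tested HOX genes and the tested genes of 7 lists of partners and regulators, with filled circles for adjusted p under 0.01, vertical bars for the medians and dashed lines at 1.5-fold. The HOX genes spread from -0.42 to 0.47 around a median of 0.03, and the medians of the lists lie between -0.10 and 0.20.

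Markers of other cell types were set beside these results. The 14 epithelial markers summed to 6358 to 6520.0 CPM in control and 5526 to 5622 CPM in ADP-CM. Most of this sum lay on KRT8, KRT7 and KRT18, with means of 1843, 1560 and 1508 CPM in control. CLDN3 and MUC1 were low, with means of 0.456 and 0.953 CPM in control. Of the 13 tested epithelial markers 1 rose and 6 fell, with 6 called by DESeq2. Of all tested genes 13.5% rose and 13% fell. The adipocyte markers ADIPOQ, LEP, CIDEA, THRSP, AQP7 and PCK1 had 0 reads in all libraries, and the summed level of the 15 adipocyte markers was 15.8 to 17.2 CPM in control and 14.5 to 16.9 CPM in ADP-CM. Of these 3 were tested, and LIPE, a lipase gene, fell by 0.62 on the log2 scale, with 1 called by DESeq2 as well. Most of the adipocyte sum lay on CFD, with a mean of 9.46 CPM in control and 10.4 CPM in ADP-CM. The 10 stromal markers summed to 61.5 to 68.5 CPM in control and 78.3 to 79.2 CPM in ADP-CM, nearly all on COL1A1, with 1 of 2 tested raised, also 1 by DESeq2, and DPT and THY1 at 0. The 8 endothelial markers summed to 62.71 to 68.7 CPM in control and 55.9 to 62.66 CPM in ADP-CM, nearly all on CDH5, with 1 of 2 tested lowered, 0 by DESeq2 and 2 at an unadjusted edgeR p under 0.05, and KDR and TIE1 at 0. The 10 leukocyte markers summed to 8.71 to 9.49 CPM in control and 11.1 to 13.3 CPM in ADP-CM, with TYROBP at 0. Most of this sum lay on CD68, with a mean of 7.43 CPM in control and 10.7 CPM in ADP-CM. Of the leukocyte markers 1 of 2 tested was raised, also 1 by DESeq2. The epithelial and endothelial sums were lower and the stromal and leukocyte sums higher in every ADP-CM library than in every control library, while the adipocyte sums overlapped. Their part in the HOX results was not tested.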

How the data were processed

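RNA-seq of 3 control and 3 ADP-CM libraries of RL95-2 cells was analysed. Per the labels and the study's methods, the authors made stranded poly(A) libraries, read them as 50 nt single reads, aligned them to hg19 with TopHat2, counted reads per RefSeq gene with HTSeq and deposited raw counts, 1 table per library. Tool versions and the strand setting of the counting are not given in the sources used here. HTSeq leaves out reads with more than 1 alignment or on more than 1 gene, which lowers the counts of genes that share exons. The 5 summary lines that name no gene (no feature 10.2 to 11.6%, ambiguous 0.709 to 0.721%, not unique 20.5 to 20.8% of reads) stayed out of library sizes and tests.

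Counts were tested in R 4.3.3 with edgeR 4.0.16 (TMM, filterByExpr, quasi-likelihood test, Benjamini-Hochberg over 12663 genes). Alternatives were DESeq2 1.42.0, other scalings, filters and limits, a robust fit, the replicate number as a block, other gene lengths (1 added after the data were seen, the canonical transcript) and each library left out in turn. The fits were tried on simulated counts first. The common coefficient of variation between replicates was 1.67%, and each pair of replicates differed by more than counting noise (chi-square per degree of freedom 1.22 to 2.01). Same-numbered libraries of the 2 groups correlated at 0.0726, 0.0141 and 0.0973 in their deviations, and the other pairs at -0.0928 to 0.0261. Whether the numbers pair the libraries could not be told from these values. Exon lengths, positions and 3′UTRs came from GENCODE release 44 on GRCh37, where 19137 symbols matched directly and 3240 by an older name, and promoter and microRNA sequences from RefSeq. All shares of exon bases in other genes are from GENCODE too, and overlaps between the RefSeq genes of the counting may differ. The members, the gene lists and the rule for named genes (every HOX gene, and up to 4 tested genes of each list with the smallest p) were chosen with earlier results of these data known. EZH2, KRT7, KRT18, CLDN3 and MUC1 are named beyond the rule for the lists. 2 aliases in the list of non-coding RNAs were removed after the tables were seen. The values of 1 HOX gene are not reported here, and it stays in the counts and shares.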

Additional observations from a re-analysis of the deposited data

How the results depend on the processing

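The count of HOX genes that rose was 1, with 0 by DESeq2, 3 at an adjusted p under 0.05 (HOXA3, HOXB9 and HOXD13) and 0 to 2 when libraries were left out in turn, with 0 without control replicate 3 or without ADP-CM replicate 3 and 2 without ADP-CM replicate 2. The count that fell was 2, with 1 by DESeq2 and 1 to 2 when libraries were left out in turn, with 1 without control replicate 1 or without ADP-CM replicate 2. Past adjusted p 0.01 and 1.5-fold the count was 0 under all fits, and 2 with the lower fold limit that was tried (HOXA3, with a fold of 1.38, and HOXC13, with 0.748). The count of 24 genes with at least 1 CPM in control was 9 at 5 CPM and 27 at 0.5 CPM. DESeq2 called 16.9% of all tested genes, against 26.5% by edgeR, and the cause was not tested.

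With the replicate block, 1 HOX gene rose (HOXA3) and 2 fell (HOXB7 and HOXC13), as without it. Whether same-numbered libraries are paired is not known, so the pairing was not used in the main fit.

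Of 337 alternative values of single HOX genes, 308 kept direction and side of the threshold, 6 lost the call (HOXA3 and HOXB7, 3 each), 1 gained it (HOXD13) and 22 changed sign. All 22 came from leaving out a library, in genes not called in either fit. The log2 fold changes over the libraries left out ran from -0.13 to 0.068 for HOXA5, -0.15 to 0.33 for HOXA6, -0.13 to 0.0012 for HOXA9, -0.075 to 0.035 for HOXA11, -0.41 to 0.0050 for HOXA13, -0.15 to 0.014 for HOXB6, -0.034 to 0.37 for HOXB8, -0.024 to 0.39 for HOXC10, -0.088 to 0.41 for HOXD1, -0.0068 to 0.14 for HOXD4, -0.023 to 0.063 for HOXD8, -0.14 to 0.011 for HOXD9 and -0.31 to 0.044 for HOXD11. Without a change of sign, they ran from 0.0098 (without ADP-CM replicate 1) to 0.21 for HOXA10, 0.030 (without ADP-CM replicate 1) to 0.31 for HOXB3, 0.079 (without ADP-CM replicate 1) to 0.21 for HOXC8, -0.28 to -0.056 (without ADP-CM replicate 2) for HOXB13 and -0.42 (without ADP-CM replicate 2) to -0.15 (without ADP-CM replicate 3) for HOXC9. Where 1 group was left with 2 libraries, the spread was shared with the other group. Depth limits the HOX genes below 1 CPM, whose reads per library do not allow a test of a change of the size seen here.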
